A study of Sus scrofa with 9 samples.

Results

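This account covers genes of lipid storage, fatty acid oxidation and fatty acid synthesis in pig (Sus scrofa) oocytes. A list of 41 gene symbols was looked up by name in the deposited count table. It matched 39 of the table's 23507 genes, and the remaining pair, DGAT2 and MGLL, was not analysed here. Positions are those of that table, and the sources used here do not give its genome build.

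Mammalian oocytes keep fatty acids as triglyceride in lipid droplets, and pig oocytes are known for their large droplet store. Lipases release fatty acids from a droplet, acyl-CoA synthetases activate them, the carnitine shuttle carries them into mitochondria, and β-oxidation shortens them step by step. Electrons from the first oxidation step pass through the electron transfer flavoprotein to the respiratory chain. In the other direction, cytosolic enzymes build palmitate, which elongases and desaturases modify.

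Polyadenylated RNA was sequenced from oocytes matured in culture to metaphase II, the stage of arrest before fertilisation. The oocytes were labelled wild type, had been collected inside compact cumulus cell layers, and were matured for 44 to 48 h with follicular fluid, gonadotrophins and epidermal growth factor in every group. Control oocytes stayed at 38.5 °C. Heat stress oocytes spent 24 h at 41.5 °C from the germinal vesicle stage and then returned to 38.5 °C. These are called heat-only below. The third group went through the same heat while its medium held L-Asp, a usual short name for L-aspartic acid. Concentrations of 0.5, 1.0 and 1.5 mmol/L are on record, and which of them was sequenced is not given. The labels give 25 oocytes per group, 3 libraries per group and no breed or animal age. Whether a group's libraries are separate cultures or pools of animals is not given either. P-values therefore measure the spread between these libraries, which may be technical.

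Libraries held 41693395 to 58361475 counts. The 3 control libraries differed far less than libraries of the heated groups. The median squared difference between 2 control libraries was 5.19 to 5.22 times the value for independent counts, against 109 to 119 in heat stress and 79.4 to 84.9 with L-Asp. In control, counts piled up at 4 (604 to 657 genes, against 318 to 351 at 3 and 216 to 235 at 5), and 4 counts were taken to stand for 1 fragment. For this reason the mean of the control libraries entered the tests as 1 sample, and their 3 values are printed below without an SD. Of 16 oocyte markers looked up, 14 had a row, and their group means ran from 7.89 CPM (TCL1A, heat-only) to 15797 CPM (BTG4, control). The mitochondrial genome took 3.09% to 14.5% of the counts in heat-only libraries, against 10% to 10.1% in control and 5.3% to 9.47% with L-Asp. The 14.5% was in heat-only library 3, which also had the highest ACSL4 and HADH below.

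CPM, the count per library size after scaling by trimmed mean of M values (TMM), compares 1 gene between libraries. FPKM, the authors' deposited fragments scaled to gene length and depth, also allows levels of different genes to be compared. Both are shares of a library, so fewer oocytes in a pool and less RNA per oocyte cannot be told apart. Oligo(dT) priming also means that tail length and RNA amount cannot be told apart.

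In control oocytes the 39 genes spanned the full range from abundant to undetected. Mean FPKM was at least 100 for 3 genes, 10 to 100 for 3, 1 to 10 for 15, 0.1 to 1 for 10 and under 0.1 for 8. The leading gene was ELOVL6, the elongase that lengthens palmitate to stearate, at 465 FPKM, rank 95 among all genes of the table. ETFA, the alpha subunit of the electron transfer flavoprotein, followed at 285 FPKM (rank 149), and ACSL3, an acyl-CoA synthetase found on the endoplasmic reticulum and on droplets, at 166 FPKM (rank 278). PLIN2, the main coat protein of droplets in cells other than fat cells, stood at 74.7 FPKM, and ACADM, the medium-chain acyl-CoA dehydrogenase, at 33.7 FPKM. These 5 genes made up 92.6% to 92.7% of the summed FPKM of the 39 genes in control and 88.2% to 91.2% in the heated libraries. A count above 0 in each of the 9 libraries was found for 30 of the genes.

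**Figure D1:**
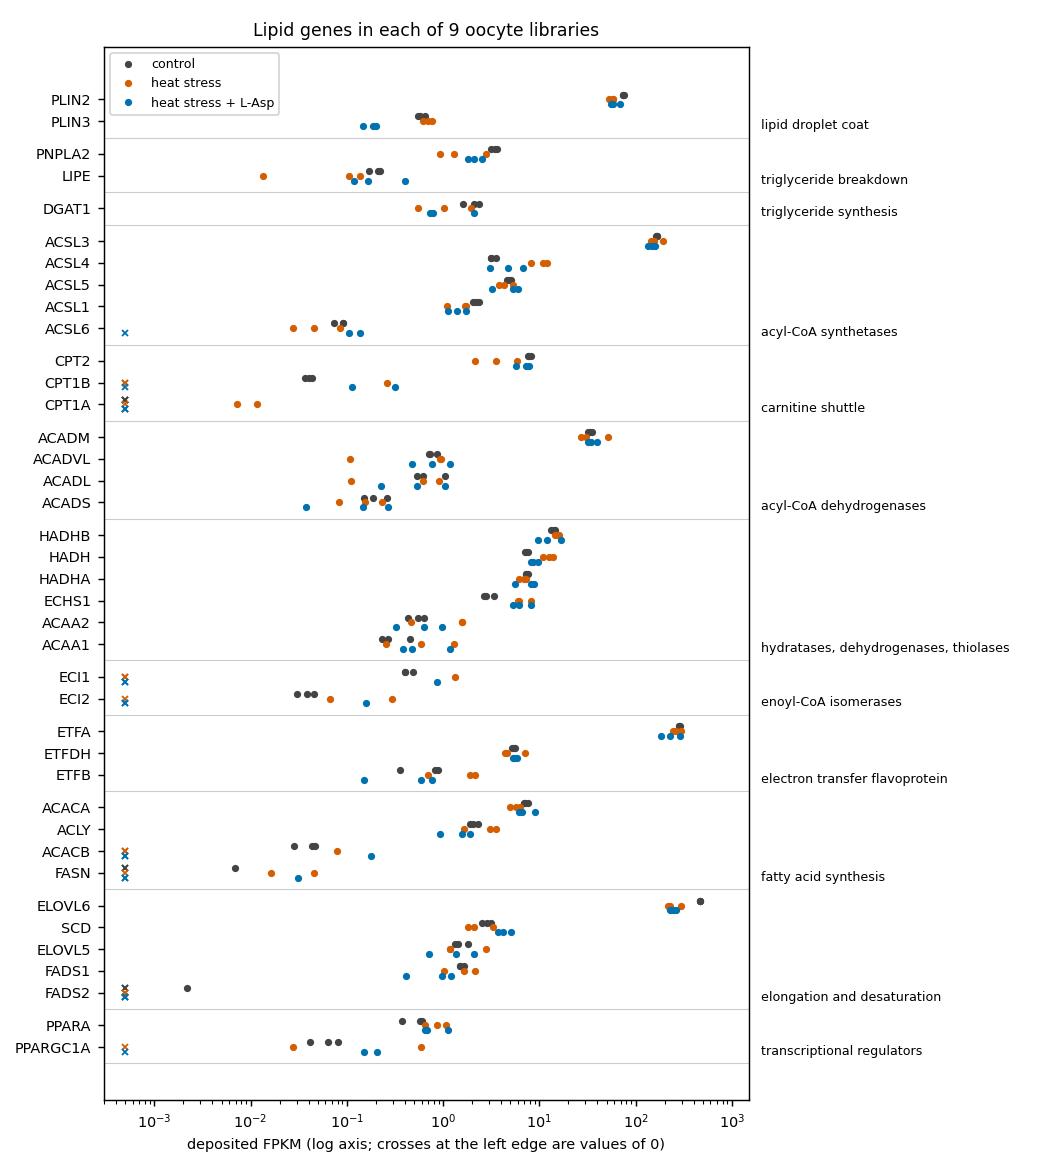
Deposited FPKM (log axis) of the 39 lipid genes by role, with 1 point per library of the 3 groups; crosses at the left edge are values of 0. ELOVL6, ETFA and ACSL3 lie above 100 FPKM in every library, while CPT1A, FASN and FADS2 lie at or near 0.

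Heat-only against control asks how heat early in maturation changed these RNAs. Of the 39 genes, 36 passed the filter on low counts, and CPT1A, FASN and FADS2 did not. By edgeR's quasi-likelihood test 0 of the 36 passed an adjusted p of 0.05, as for all 15012 genes tested (0%). DESeq2 called 0 of the 36 and 115 genes in all. At an unadjusted p under 0.05 there were 3 of the 36 (8.33%), against 3.86% of all genes. The 3 heat-only libraries lay wholly outside the 3 control libraries for 14 genes (38.9%), 4 above and 10 below. The same held for 32.7% of all genes tested (13.6% above and 19% below), so the share was near the background. The median log2 fold change was -0.18 over the 36 genes and 0 over all genes, and 13 of the 36 lay above 0, against 50.1% of all genes. Without TMM scaling the median of all genes shifted to 0.19, 19 of the 36 lay above 0 and their median was 0.01, again 0.18 below that of all genes.

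The next comparison, L-Asp against heat-only, asks how L-Asp in the medium altered the heated oocytes. It shares its heat-only libraries with the first comparison. A gene high or low in those libraries alone therefore takes opposite signs in these comparisons by construction. Here too 0 of the 36 genes passed by edgeR (0% of all genes), and DESeq2 called 0 of the 36 and 46 genes in all. At an unadjusted p under 0.05 there were again 3 of the 36 (8.33%), against 6.61% of all genes. All L-Asp libraries lay outside the heat-only range for 5 genes (13.9%), with ACACA and SCD above and ACSL4, HADH and PLIN3 below. Of all genes tested, 11.9% did not overlap (6.31% above and 5.54% below). The median log2 fold change was -0.02, against -0.01 over all genes, and 17 of the 36 lay above 0, against 49% of all genes.

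L-Asp against control shares its control samples with the first comparison and asks what still differed from unheated oocytes. None of the 36 genes passed by edgeR (0% of all genes) and none by DESeq2, which called 43 genes in all. An unadjusted p under 0.05 was found for 1 of the 36 (2.78%), against 3.22% of all genes. Groups did not overlap for 12 genes (33.3%), against 33.8% of all genes (14.2% above and 19.6% below). Below control lay 10 of the 12, and ECHS1 and SCD lay above. The median was -0.17, against 0.01 over all genes, and 12 of the 36 lay above 0, against 50.5% of all genes. Without TMM scaling the medians were 0 and 0.18, and 18 of the 36 lay above 0. Because no gene passed, the values that follow describe these libraries, with the test of each difference beside them.

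**Figure D2:**
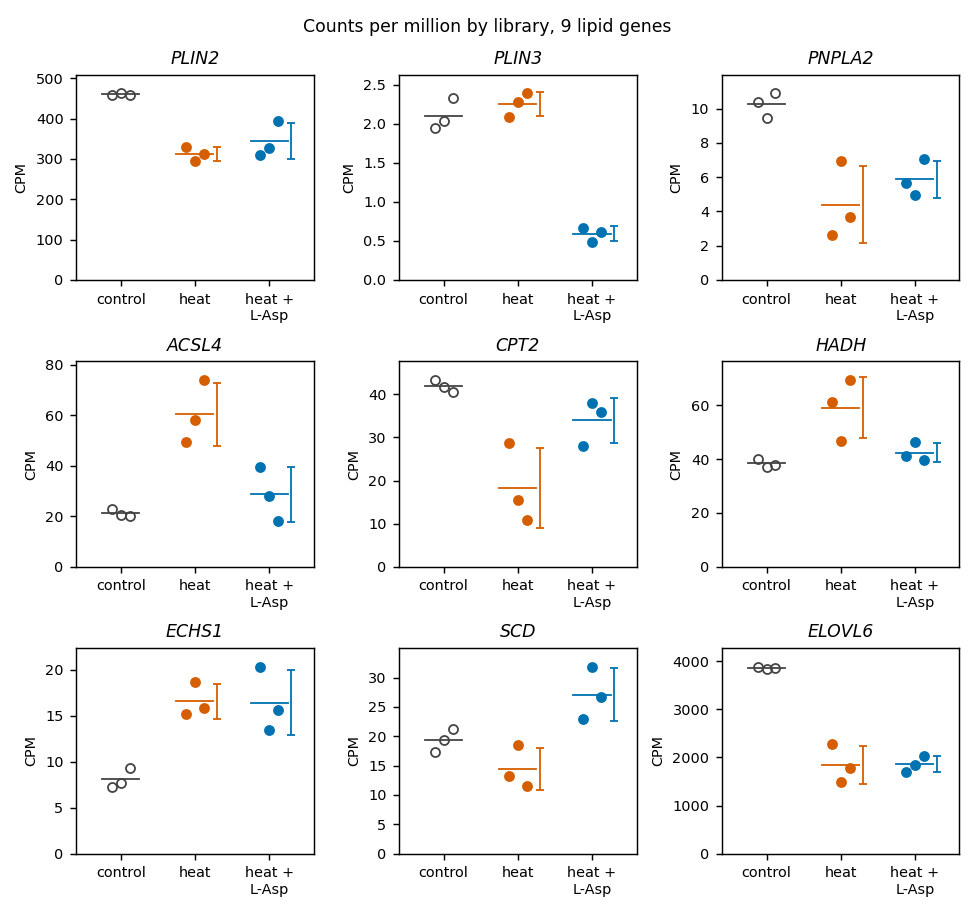
CPM of 9 lipid genes in each library (points), with the group mean (line) and, for the heated groups, 1 SD (bar). Open points are the 3 control libraries, which were counted as 1 sample; ELOVL6 and PLIN2 lie below control in all 6 heated libraries, and ACSL4 lies highest in the heat-only libraries.

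Droplet coat proteins shield stored triglyceride from lipases. PLIN2 (chromosome 1, 203683862 to 203697099, plus strand) measured 459, 463 and 458 CPM in the control libraries, 330, 294 and 312 CPM in heat-only libraries, and 310, 327 and 395 CPM in L-Asp libraries. All 6 heated libraries lay below control, and the heated groups overlapped each other. The means were 460.1 CPM in control, 312 ± 17.8 CPM in heat-only libraries and 344 ± 44.9 CPM in L-Asp libraries (SD, n = 3 each heated group). The log2 fold change for heat-only against control was -0.56 ± 0.26 (SE; edgeR, adjusted p = 1).

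PLIN3, a coat protein that also occurs free in the cytosol, was scarce (chromosome 2, 73970200 to 73995311, plus strand). Control libraries held 1.94, 2.04 and 2.33 CPM, against 2.09, 2.28 and 2.39 CPM in heat-only libraries. With L-Asp it measured 0.669, 0.485 and 0.616 CPM, below every library of the other groups. The L-Asp values rest on 33, 24 and 26 counts, against 103, 117 and 123 after heat stress. The log2 fold change of L-Asp against heat-only was -1.93 ± 0.98 (SE; edgeR, adjusted p = 0.738). The ratio of PLIN2 to PLIN3 in FPKM was 115 to 137 in control, 75.1 to 92.8 after heat stress and 272 to 392 with L-Asp.

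Triglyceride breakdown starts with PNPLA2, the adipose triglyceride lipase, and continues with LIPE, the hormone-sensitive lipase. PNPLA2 measured 10.4, 9.46 and 10.9 CPM in control, 2.61, 6.92 and 3.68 CPM in heat-only libraries, and 5.64, 4.95 and 7.06 CPM in L-Asp libraries. Every heated library lay below control, with log2 fold changes of -1.21 ± 0.69 for heat stress and -0.80 ± 0.70 for L-Asp against control (SE; edgeR, adjusted p = 1 each). LIPE stayed at or under 2.01 CPM in every library. The single measured enzyme of the last step of triglyceride synthesis was DGAT1, at 11.1, 7.61 and 9.85 CPM in control, 4.46, 2.16 and 8.70 CPM in heat-only libraries and 3.18, 3.42 and 9.21 CPM in L-Asp libraries. Its groups overlapped, with 1 library of each heated group at the control level. The body of DGAT1 overlaps HSF1 on the other strand, and the preparation does not mark strand.

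Acyl-CoA synthetases couple a fatty acid to coenzyme A so that it can be stored or oxidised, and the 5 long-chain isoforms were led by ACSL3. It provided 89.5% to 94.3% of their summed FPKM in every library. ACSL3 measured 1106.5, 1134 and 1123 CPM in control, 1214, 813 and 986 CPM in heat-only libraries and 971, 922 and 849 CPM in L-Asp libraries. Heat-only libraries lay on both sides of control, so no difference beyond the spread was seen there, and the sign of the log2 fold change (-0.16 ± 0.28, SE) turned without TMM scaling.

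ACSL4 is the isoform that prefers arachidonic acid and feeds it into phospholipids (chromosome X, 89763590 to 89806274, minus strand). Among the tested lipid genes of the main list, it had the smallest p on the higher side after heat. Control libraries held 23.1, 20.5 and 20.2 CPM, against 49.4, 58.0 and 74.0 CPM in heat-only libraries. With L-Asp it measured 39.7, 28.0 and 18.3 CPM, below all heat-only libraries and overlapping control. Means were 21.3 CPM, 60.5 ± 12.5 CPM and 28.7 ± 10.7 CPM (SD, n = 3 each heated group), so heat-only stood at 2.85 times control. The log2 fold changes were 1.51 ± 0.49 for heat-only against control and -1.08 ± 0.32 for L-Asp against heat-only (SE; edgeR, adjusted p = 0.838 and 0.738, unadjusted p = 0.0102 and 0.00597). ACSL4 thus took 1.76% to 2.04% of the ACSL FPKM in control, 3.94% to 6.99% after heat stress and 2.09% to 3.90% with L-Asp.

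Markers of cumulus and granulosa cells, which surround the oocyte, lay mostly on the same sides as ACSL4. Of 21 tested markers, 15 lay above 0 for heat-only against control (71.4%, against 50.1% of all genes). For L-Asp against heat-only 15 lay below 0 (28.6% above 0, against 49% of all genes). These comparisons share the heat-only libraries, so the opposite sides are not independent. None of the 21 passed by edgeR, but 4 had an unadjusted p under 0.05 for heat-only against control, all on the higher side (19%, against 3.86% of all genes). CYP11A1, the first enzyme of steroid synthesis, measured 0, 0 and 0.115 CPM in control, 5.98, 6.37 and 15.1 CPM in heat-only libraries and 1.32, 7.80 and 0.687 CPM in L-Asp libraries. GJA1, a gap junction protein, measured 0.668, 0.191 and 1.56 CPM in control, 6.97, 7.15 and 13.4 CPM in heat-only libraries and 5.03, 1.60 and 7.03 CPM in L-Asp libraries. GATA6 and INHBA had no count in control and at most 1.60 and 1.03 CPM in a heat-only library. All 4 lay above control in all 6 heated libraries. Markers with almost no control counts, such as CYP11A1, GATA6 and INHBA, passed the filter through heated libraries and could hardly lie below control. Their side was therefore largely set by the filter, and the 19% and the 15 markers above 0 include them. Their highest heat-only value was in the library with the highest ACSL4 and HADH. Over the 28 markers with a row, the summed level was 1331 to 1373 CPM in control, 1374 to 1739 CPM in heat-only libraries and 1346 to 1383 CPM in L-Asp libraries, most of it from RGS2. Of the 28 markers with a row, 7 were at 0 in all control libraries and PTX3 was at 0 in all 9 libraries. Without RGS2, left out after the values were seen, the sum was 406 to 419 CPM in control, 417, 394 and 521 CPM in heat-only libraries and 449, 567 and 498 CPM in L-Asp libraries. The part of these markers in the ACSL4 values was not tested. Of 7 markers of fat cells looked up, 4 had a row, and these were nearly absent. Their summed level was at most 1.21 CPM, CIDEC was at 0 throughout, and ADIPOQ and LPL were at 0 in all heated libraries.

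The other isoforms were less abundant. ACSL1, an isoform tied to oxidation in heart and fat, measured 14.7, 15.4 and 13.5 CPM in control, 6.75, 9.51 and 10.6 CPM in heat-only libraries and 8.41, 6.79 and 10.5 CPM in L-Asp libraries. All heated libraries of ACSL1 lay below control (log2 fold change -0.70 ± 0.53 and -0.76 ± 0.53, SE; edgeR, adjusted p = 1 each). ACSL5 ranged from 10.9 to 20.0 CPM without separating the groups, and ACSL6 stayed at or under 1.35 CPM.

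**Figure D3:**
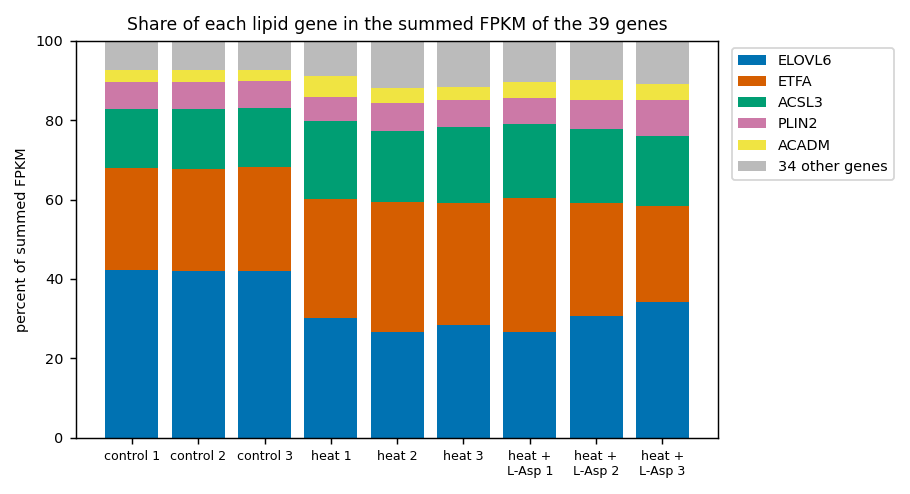
Share of ELOVL6, ETFA, ACSL3, PLIN2, ACADM and the other genes (stacked bars, percent) in the summed FPKM of the 39 genes, 1 bar per library. ELOVL6 takes 42% to 42.2% in control and 26.5% to 34.3% in the heated libraries.

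Among the 3 carnitine transferases of the list, almost all RNA came from the inner enzyme, CPT2, at 7.83 FPKM in control. The carrier of the shuttle, SLC25A20 of the wider list, stood at 11.6 FPKM there. CPT1A and CPT1B, the outer-membrane transferases that are held to limit the rate of β-oxidation, were scarce. CPT1A had 0 counts in all control and L-Asp libraries and 3, 4 and 0 counts after heat stress. A library with no count could still hold up to 0.229 to 0.284 CPM, the level of 3 fragments at 4 counts each, for counting error only. In heated libraries the 4 counts per fragment are an assumption. CPT1B measured 0.142 to 0.154 CPM in control, 0 to 0.740 CPM in heat-only libraries and 0 to 1.02 CPM in L-Asp libraries, from 0, 38 and 0 and from 0, 18 and 43 counts in the heated groups.

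CPT2, the inner-membrane transferase, was far more abundant (chromosome 6, 159037403 to 159061327, minus strand). It measured 43.3, 41.6 and 40.6 CPM in control, 28.7, 15.5 and 10.8 CPM in heat-only libraries and 28.0, 37.9 and 36.0 CPM in L-Asp libraries. Every heated library lay below control, and 1 L-Asp library lay within the heat stress range. Group means were 41.8 CPM, 18.4 ± 9.28 CPM and 33.9 ± 5.25 CPM (SD, n = 3 each heated group). The log2 fold change was -1.19 ± 0.48 for heat-only against control and 0.89 ± 0.36 for L-Asp against heat-only (SE; edgeR, adjusted p = 1 and 0.738, unadjusted p = 0.0316 and 0.0331).

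Acyl-CoA dehydrogenases take the first step of each β-oxidation round and differ in the chain length they accept. Their RNAs were very unequal. ACADM stood at 33.7 FPKM in control, whereas the very-long-chain enzyme ACADVL stood at 0.771, the long-chain enzyme ACADL at 0.726 and the short-chain enzyme ACADS at 0.200 FPKM. ACADM measured 116, 112.5 and 106 CPM in control, 158, 83.1 and 86.1 CPM in heat-only libraries and 104.5, 119 and 97.5 CPM in L-Asp libraries. Heat-only libraries of ACADM lay on both sides of control, and its log2 fold change of -0.03 ± 0.38 (SE) turned sign under the other scalings. The other 3 dehydrogenases stayed at or under 3.62 CPM and overlapped in every comparison.

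The following steps add water, oxidise again and split off acetyl-CoA. HADHA and HADHB, the subunits of the mitochondrial trifunctional protein for long chains, stood at 7.41 and 14.0 FPKM in control. HADHB measured 58.4, 62.9 and 62.0 CPM in control, 64.8, 53.0 and 65.7 CPM in heat-only libraries and 66.8, 48.6 and 39 CPM in L-Asp libraries. The ranges of HADHB overlapped in all comparisons. The bodies of HADHA and HADHB overlap on opposite strands, and reads from the overlap cannot be assigned to either.

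ECHS1, the hydratase for short chains, was higher in both heated groups (chromosome 14, 141339364 to 141348994, minus strand). It measured 7.23, 7.72 and 9.30 CPM in control, 15.2, 18.7 and 15.8 CPM in heat-only libraries and 20.3, 13.4 and 15.6 CPM in L-Asp libraries. All 6 heated libraries lay above control, with log2 fold changes of 1.03 ± 0.49 and 1.02 ± 0.49 (SE; edgeR, adjusted p = 1 each, unadjusted p = 0.0602 and 0.0622). Between the heated groups the log2 fold change was -0.01 ± 0.33 (SE). The same 4 cumulus and granulosa markers lay above control in all 6 heated libraries, whereas FST and PGR of that list lay below it. Of the 4, CYP11A1, GATA6 and INHBA had almost no control counts and passed the filter through heated libraries, so they could hardly lie below control. For L-Asp against control, 12 of the 21 tested markers lay above 0 (57.1%, against 50.5% of all genes). The part of these markers in the ECHS1 values was not tested.

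HADH, the dehydrogenase for short and medium chains, measured 40.1, 37.2 and 38.0 CPM in control, 61.1, 46.9 and 69.4 CPM in heat-only libraries and 41, 46.3 and 39.7 CPM in L-Asp libraries. Heat-only libraries lay above all others, and L-Asp libraries overlapped control. Log2 fold changes were 0.62 ± 0.36 for heat-only against control and -0.48 ± 0.24 for L-Asp against heat-only (SE; edgeR, adjusted p = 1 and 0.738). The cumulus and granulosa markers lay mostly on the same sides as HADH, in comparisons that share the heat-only libraries. Of these markers, CYP11A1, GJA1, GATA6 and INHBA were highest in the heat-only library with the highest HADH (69.4 CPM). FST and PGR of the same list lay below control in every heat-only library. The part of these markers in the HADH values was not tested. The thiolases ACAA1 (peroxisomal) and ACAA2 (mitochondrial) stayed at or under 5.90 CPM. Control and heat stress overlapped for both. ACAA1 measured 1.28, 1.47 and 2.46 CPM in control, 1.30, 5.84 and 3.03 CPM in heat-only libraries and 2.35, 1.94 and 5.90 CPM in L-Asp libraries. ACAA2 measured 1.48, 1.70 and 1.15 CPM in control, 3.87, 3.49 and 1.19 CPM in heat-only libraries and 1.56, 2.40 and 0.829 CPM in L-Asp libraries.

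The enoyl-CoA isomerases, which prepare unsaturated fatty acids for oxidation, were scarce. ECI1 measured 0.790, 0.973 and 0.789 CPM in control, 0, 0 and 2.51 CPM in heat-only libraries and 0, 1.56 and 0 CPM in L-Asp libraries. These values rest on 39, 51 and 41 counts in control, 0, 0 and 129 in heat-only and 0, 77 and 0 in L-Asp libraries, so libraries of a heated group differed from each other more than the groups did. ECI2 ranged from 0 to 1.87 CPM.

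The electron transfer flavoprotein is a pair of ETFA and ETFB, which hands electrons to the dehydrogenase ETFDH. RNA of the partners was far from equal, with 285 FPKM for ETFA, 0.689 FPKM for ETFB and 5.44 FPKM for ETFDH in control. The ratio of ETFA to ETFB in FPKM ranged from 114 to 1505 over the 9 libraries. ETFB rests on only 10 to 153 counts in a library, so the size of the ratio is uncertain. The 1505 is from L-Asp library 2, where ETFB at 10 counts lay under the level of 3 fragments (0.243 CPM). ETFA measured 950.0, 939 and 959 CPM in control, 911, 731 and 772 CPM in heat-only libraries and 878, 686 and 570.3 CPM in L-Asp libraries. All heated libraries of ETFA lay below control, by log2 fold changes of -0.24 ± 0.29 and -0.42 ± 0.29 (SE; edgeR, adjusted p = 1 each). ETFB measured 1.30, 0.534 and 1.21 CPM in control, 2.59, 0.857 and 2.98 CPM in heat-only libraries and 0.791, 0.202 and 1.02 CPM in L-Asp libraries, with overlapping ranges. ETFDH ranged from 34.1 to 47.8 CPM without separating the groups.

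Fatty acid synthesis uses ACLY to make cytosolic acetyl-CoA, acetyl-CoA carboxylase to make malonyl-CoA, and FASN to build palmitate. FASN RNA was at or near 0, with no count in 2 control libraries and 4 counts in the other one, and at most 24 counts in a heated library. Of the carboxylases, ACACA was present at 7.24 FPKM and ACACB at 0.0395 FPKM in control. ACACA measured 90.9, 83.3 and 85.5 CPM in control, 55.1, 62.7 and 65.4 CPM in heat-only libraries and 72.1, 67.0 and 98.9 CPM in L-Asp libraries. Heat-only libraries lay below all others (log2 fold change -0.50 ± 0.32 against control and 0.38 ± 0.23 for L-Asp against heat-only, SE; edgeR, adjusted p = 1 and 0.771). ACLY measured 11.6, 13.0 and 10.8 CPM in control, 8.67, 16.7 and 16.6 CPM in heat-only libraries and 9.87, 4.81 and 8.29 CPM in L-Asp libraries. The L-Asp libraries of ACLY lay below control and overlapped heat stress (log2 fold change -0.87 ± 0.42 against heat stress, SE; edgeR, adjusted p = 0.738).

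Elongation and desaturation held the most abundant gene of the set and the one with the smallest p for heat-only against control. ELOVL6 (chromosome 8, 112027054 to 112191274, plus strand) measured 3882, 3842 and 3855 CPM in control. It measured 2275, 1488 and 1777 CPM in heat-only libraries and 1708, 1848 and 2029 CPM in L-Asp libraries. Every heated library lay far below control, and the heated groups overlapped. Group means were 3860 CPM, 1847 ± 398 CPM and 1862 ± 161 CPM (SD, n = 3 each heated group), so heat stress stood at 0.478 times control.

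The log2 fold changes of ELOVL6 were -1.06 ± 0.28 for heat stress and -1.05 ± 0.28 for L-Asp against control (SE; edgeR, adjusted p = 0.59 and 1, unadjusted p = 0.00259 and 0.0028). L-Asp against heat-only gave 0.01 ± 0.21. With the 3 control libraries entered as 3 replicates, edgeR called ELOVL6 lower in both heated groups (adjusted p = 0.00747 and 0.0127). Over the 16 alternative settings the adjusted p ranged from 0.00747 to 1 and from 0.0127 to 1, with log2 fold changes of -1.24 to -0.89 and -1.12 to -0.88. ACSL4 (adjusted p = 0.0149, range over the settings 0.0149 to 1) and ECHS1 (0.0496, range 0.0496 to 1) were also called for heat stress in that fit of 9 libraries. The summed level of the oocyte markers was lower in the heated libraries as well, at 32368 to 32627 CPM in control, 16731 to 20861 CPM in heat-only libraries and 20534 to 23568 CPM in L-Asp libraries. That sum is led by BTG4, which like BMP15, MOS, WEE2 and TCL1A had lower means in both heated groups than in control. ZP3, ZP4 and OOEP had higher means in both. Of the 14 tested oocyte markers, 10 lay below 0 for heat-only against control and 9 for L-Asp against control. Groups did not overlap for 71.4% and 78.6% of the 14, against 32.7% and 33.8% of all genes. The part of these markers in the ELOVL6 and PLIN2 values was not tested.

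SCD places a double bond in stearate and palmitate (chromosome 14, 111461569 to 111478020, plus strand). Among the tested lipid genes of the main list, it had the smallest p on the higher side for L-Asp against heat-only. It measured 17.4, 19.3 and 21.3 CPM in control, 13.3, 18.5 and 11.6 CPM in heat-only libraries and 22.9, 31.8 and 26.6 CPM in L-Asp libraries. The L-Asp libraries lay above all others, and heat stress overlapped control. The log2 fold change was 0.91 ± 0.31 against heat stress and 0.48 ± 0.45 against control (SE; edgeR, adjusted p = 0.738 and 1, unadjusted p = 0.0146 and 0.308).

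The desaturases of polyunsaturated fatty acids were low or undetected. FADS2 had 1 count in 1 control library and none in the other 8 libraries. FADS1 measured 9.96, 9 and 9.12 CPM in control, 5.67, 10.7 and 9.38 CPM in heat-only libraries and 2.27, 5.38 and 6.75 CPM in L-Asp libraries. The L-Asp libraries of FADS1 lay below control (log2 fold change -0.96 ± 0.70, SE; edgeR, adjusted p = 1) and overlapped heat stress. ELOVL5, an elongase of polyunsaturated fatty acids, ranged from 2.35 to 9.24 CPM without separating the groups.

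The regulators PPARA, a nuclear receptor that activates oxidation genes, and PPARGC1A, its coactivator, were scarce. PPARA measured 2.71, 1.77 and 2.87 CPM in control, 3.83, 4.17 and 2.88 CPM in heat-only libraries and 2.84, 2.91 and 4.97 CPM in L-Asp libraries. Heat-only libraries of PPARA lay just above control, with a log2 fold change of 0.57 ± 0.89 (SE; edgeR, adjusted p = 1). PPARGC1A ranged from 0 to 4.17 CPM, with its highest value and a value of 0 both in heat-only libraries.

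**Figure D4:**
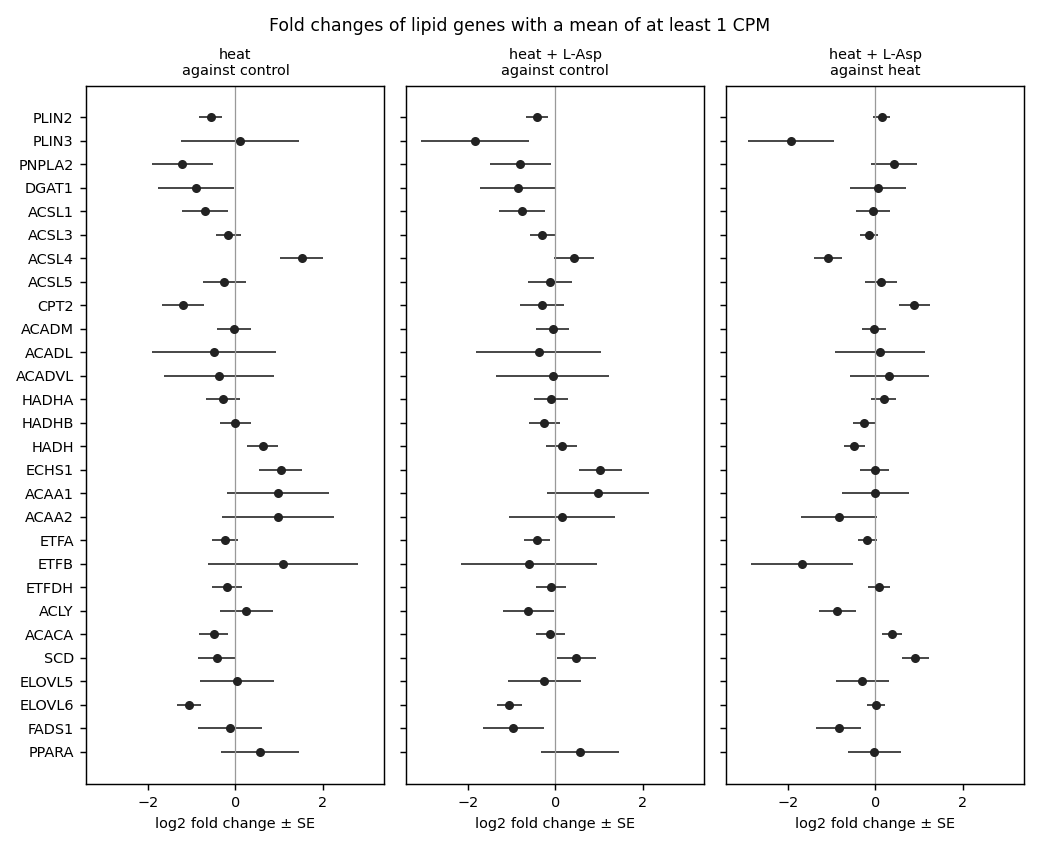
Log2 fold change (point) and SE (bar) from edgeR for the 28 tested lipid genes with a mean of at least 1 CPM, in 3 comparisons. ELOVL6 lies near -1 against control in both heated groups and near 0 between them. ACSL4 and CPT2 lie on opposite sides of 0 in the first and last panels, which share the heat-only libraries.

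A wider list of 150 other genes of lipid metabolism, covering droplet proteins, lipolysis, glycerolipid synthesis, uptake, oxidation, elongation and regulation, was described in the same way. It had 131 genes with a row and 115 tested. By edgeR 0 passed in each comparison and 0 by DESeq2, and an unadjusted p under 0.05 was found for 5, 6 and 6 of them (4.35%, 5.22% and 5.22%, against 3.86%, 6.61% and 3.22% of all genes) for heat-only against control, L-Asp against heat-only and L-Asp against control. Their median log2 fold changes were -0.03, -0.02 and -0.11. Groups did not overlap for 33%, 10.4% and 46.1% of the 115 genes, against 32.7%, 11.9% and 33.8% of all genes.

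HILPDA is a droplet protein that inhibits PNPLA2. Among genes of the wider list with a mean of at least 5 CPM, it had the smallest p below control after heat. It measured 560, 569 and 557 CPM in control, 244, 220.5 and 179 CPM in heat-only libraries and 197, 327 and 468 CPM in L-Asp libraries. Every heated library lay below control, and the L-Asp libraries spread widely (log2 fold change -1.39 ± 0.38 for heat-only against control, SE; edgeR, adjusted p = 0.673). MLX, partner of the glucose-sensing factor MLXIPL, measured 213, 210.1 and 222 CPM in control, 96.7, 104 and 128.5 CPM in heat-only libraries and 129, 149.5 and 154 CPM in L-Asp libraries. INSIG2, which retains the SCAP and SREBP complex in the endoplasmic reticulum, measured 84.3 CPM in control and 51.3 ± 4.55 CPM in heat-only libraries, and SCAP itself 17.5 and 30.2 ± 4.70 CPM (SD, n = 3).

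On the higher side after heat, DBI, the acyl-CoA binding protein, measured 675, 660.3 and 675.5 CPM in control, 950, 1077 and 848 CPM in heat-only libraries and 622, 834 and 815 CPM in L-Asp libraries. Heat-only libraries of DBI lay above all others (log2 fold change 0.52 ± 0.29 against control, SE; edgeR, adjusted p = 1). ACOT13, a mitochondrial acyl-CoA thioesterase, measured 1.48 CPM in control, 8.09 ± 4.97 CPM in heat-only libraries and 8.25 ± 2.34 CPM in L-Asp libraries (SD, n = 3), and its body overlaps C6orf62 on the other strand. MLX likewise overlaps PSMC3IP, and CROT overlaps another gene.

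PRKAB2 is a regulatory subunit of the energy-sensing kinase AMPK. For L-Asp against heat-only it had the smallest p on the lower side among wider-list genes of at least 5 CPM. It measured 16.7, 11.8 and 9.08 CPM in heat-only libraries, 4.01, 5.98 and 4.03 CPM in L-Asp libraries and 5.71, 6.18 and 7.27 CPM in control. The heat-only libraries of PRKAB2 lay above both other groups (log2 fold change -1.42 ± 0.44, SE; edgeR, adjusted p = 0.738). RAB18, a droplet GTPase, measured 58.8 ± 12.8 CPM in heat-only libraries and 40.3 ± 10.2 CPM in L-Asp libraries (SD, n = 3 each). On the higher side, HACD2, a dehydratase of the elongation cycle, measured 185 ± 66.5 and 280.4 ± 28.4 CPM (SD, n = 3 each). LPIN2, a phosphatidate phosphatase of glycerolipid synthesis, measured 84.8 ± 19.6 and 121 ± 15.5 CPM (SD, n = 3 each).

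Against control, L-Asp libraries were lower in 3 further genes. CROT, which makes carnitine esters in peroxisomes, measured 159 CPM in control and 94.7 ± 15.4 CPM in L-Asp libraries. EHHADH, the peroxisomal bifunctional enzyme, measured 78.8 and 40.7 ± 12.8 CPM. The thioesterase ACOT9 measured 15.7 and 6.26 ± 2.13 CPM (SD, n = 3 with L-Asp). On the higher side GPAT4, an acyltransferase that starts glycerolipid synthesis, measured 4.93 and 10.6 ± 3 CPM. None of these 4 differences passed (edgeR, adjusted p = 1 each).

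**Figure D5:**
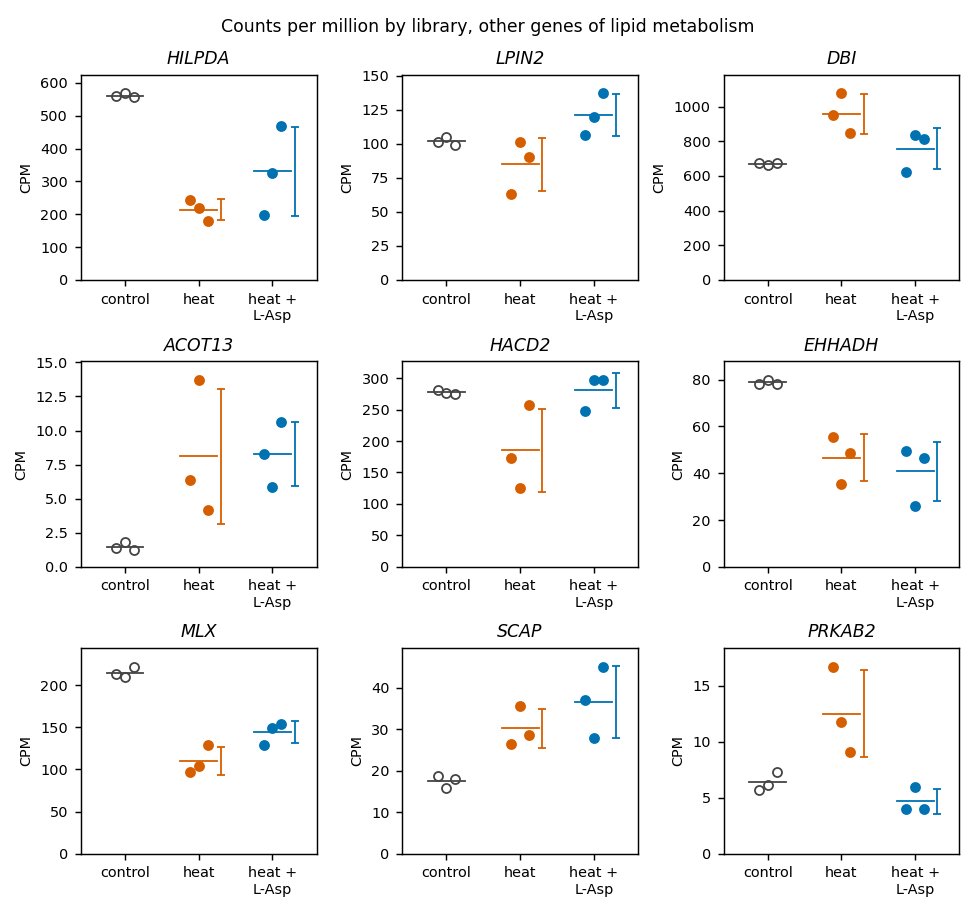
CPM of 9 genes of the wider list in each library (points), with the group mean (line) and, for the heated groups, 1 SD (bar); open points are the 3 control libraries, counted as 1 sample. HILPDA, EHHADH and MLX lie below control in all 6 heated libraries, and ACOT13 and SCAP lie above it.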

How the data were processed

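Counts and FPKM of 9 libraries came from 1 table of the whole series. The deposited counts are whole numbers and were used as deposited, and the FPKM were computed by the authors, per the file headers. Among the tools in the submitters' processing notes, listed without roles, are HISAT2 2.2.1, cutadapt 1.9, StringTie 2.1.6, edgeR and DESeq2. For the build of the coordinates and the counting method, the sources used here give nothing. The table's 6 further columns of per-sample values were not used.

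The rounded mean of the control libraries, 3 heat stress and 3 L-Asp libraries (7 in all) were filtered by filterByExpr on the 9 libraries, scaled by TMM and tested with edgeR 4.0.16 (glmQLFit with robust = TRUE, glmQLFTest; 4 residual degrees of freedom), with Benjamini-Hochberg adjustment over all genes. The lone control was assumed to vary like the heated groups. SE is the absolute log2 fold change over the square root of F. CPM of control libraries use the TMM factor of their mean. DESeq2 1.42.0 and limma 3.58.1 with R 4.3.3 completed the tools. The fit was also run on data simulated from its own estimates of spread. Such data cannot test whether the lone control varies like the heated groups.

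The genes and lists were chosen with earlier results of these data known. Named are, per role, the gene of highest FPKM, per comparison the 5 of smallest p in each direction with at least 1 CPM, and 3 of the wider list in each direction with at least 5 CPM. Other members are given by range. A gene of the wider list that this rule names is not reported here. Of the 39 genes, 9 overlap another gene of the table (DGAT1, ACSL1, ACADVL, HADHA, HADHB, ACAA1, ECI1, ETFDH and ACACA). Alternatives were other scalings and filters, DESeq2, the fit of 9 libraries, the replicate number as a block, and each library left out.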

Additional observations from a re-analysis of the deposited data

How the results depend on the processing

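No lipid gene was called under other scalings, other filters, DESeq2 or any left-out library in the 3 comparisons. The fit of 9 libraries called 3 of them for heat-only against control and 1 for L-Asp against control, with 433, 2 and 269 genes called in all for heat-only against control, L-Asp against heat-only and L-Asp against control. That fit treats 3 control libraries that differ by little more than sampling as replicates. With the replicate block it called 2 and 1 lipid genes, ACSL4 and ELOVL6 and then ELOVL6 alone, and 378, 0 and 223 genes in all. The labels do not say that replicate numbers pair the samples, and deviations of same-numbered heat-only and L-Asp libraries correlated at 0.183, -0.051 and 0.048, so the numbers were not taken as pairs. Not every library correlated best with its own number. DESeq2 called 115, 46 and 43 genes in all, edgeR without a filter 9, 2 and 3, and leaving out 1 library 0 to 1, 0 to 3 and 0 to 1. A single library left out moved the lipid genes above 0 to between 12 and 15, 15 and 20, and 11 and 14.

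Signs were followed gene by gene only for the genes named in a comparison. Among those, they turned only where the log2 fold change was near 0 or counts were low, and the cause was not tested. Without TMM, the lipid genes above 0 went from 13 to 19 for heat-only against control and from 12 to 18 for L-Asp against control. For heat-only against control, ACADM gave 0.000279 with DESeq2, 0.000278 with median-of-ratios scaling and 0.143 without TMM, and -0.399 to 0.128 with 1 library left out. HADHB gave 0.0343 with DESeq2 and with median-of-ratios scaling, 0.178 without TMM, 0.0161 at a mean count of at least 50 and 0.00746 with 9 libraries, and -0.0629 to 0.0927 with 1 library left out. ACSL3 gave 0.0172 and ECI1 0.0654 without TMM, and ECI1 -8.4 to 0.547 with 1 library left out. For L-Asp against heat-only, ACADM gave 0.0205 and 0.0476 with the replicate block (9 and 6 libraries). With 1 library left out, this comparison gave -0.187 to 0.341 for ACADM, -0.63 to 0.689 for DGAT1, -0.122 to 0.19 for ELOVL6, -0.335 to 0.129 for PPARA, -0.267 to 0.023 for ACSL3 and -8.35 to 7.65 for ECI1. The ECI1 values of -8.4, -8.35 and 7.65 come from fits where a heated group is left with libraries at 0 alone, so they have no firm size. For L-Asp against control, ACADM gave 0.116 and ACACA 0.0503 without TMM, and ACADM -0.133 to 0.00481 with 1 library left out. Depth limits CPT1A and FADS2, with at most 4 counts in a library. CPT1B, FASN, ACACB, ECI1 and ECI2 ranged from 0 to between 24 and 129 counts among libraries of a heated group, a spread whose cause was not tested. The outcome for comparisons with control rests on 1 control sample, whose spread could not be measured.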

Other observations

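Some genes of the wider list were as abundant per length as the leading lipid genes, and they are named here after their values were seen. HILPDA had a mean of 409 FPKM in control, second only to ELOVL6 among the genes of both lists. FABP3, a carrier of fatty acids in the cytosol, stood at 120 FPKM, DBI at 84.9 FPKM and MLX at 82.1 FPKM. SLC25A20, the carrier that exchanges acylcarnitine across the inner mitochondrial membrane, stood at 11.6 FPKM in control, although CPT1A and CPT1C had no count there and CPT1B stood at 0.0401 FPKM. Of the nuclear receptors, PPARG stood at 9.31 FPKM, PPARD at 1.71 FPKM and PPARA at 0.516 FPKM. The carnitine importer SLC22A5 had 0 counts in all 9 libraries.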
